A study of Mus musculus with 12 samples.

Results

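Glypicans and syndecans are the cell-surface carriers of heparan sulfate. The 6 glypican genes (Gpc1 to Gpc6) and the 4 syndecan genes (Sdc1 to Sdc4) of the mouse were chosen by gene symbol, and all 10 were found among the 52634 genes of a count table from the dorsal hippocampus. They had been picked with their levels by genotype in view, so differences between genotypes are given for them as a description, without p-values. Counts of members past a threshold in those comparisons rest on the same values and support nothing. All 10 passed the filter on low counts.

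Each of these proteins carries long sulfated sugar chains that bind growth factors, morphogens and the extracellular parts of synaptic receptors. Glypicans hang on the outer leaf of the membrane by a lipid anchor and can be released, whereas syndecans cross the membrane and reach the cytoskeleton through short tails. In the developing brain both families are known for roles in axon growth and synapse formation: some glypicans are made by astrocytes and act on neighbouring neurons, and Sdc3 is the syndecan of growing axons.

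RNA was sequenced from the dorsal hippocampus of mouse pups at postnatal day 7. In SERTPyramid pups the serotonin transporter gene Slc6a4 is conditionally deleted in pyramidal neurons, and SERTfl/fl pups carry the floxed gene without that deletion. The sample titles add a delta sign to the first name (SERTPyramid∆), and the genotype field writes it without one. There were 4 groups of 3 libraries: SERTPyramid labelled female, SERTfl/fl labelled female, SERTPyramid labelled male and SERTfl/fl labelled male. Each library pooled tissue from 4 mice, the labels used here do not name the driver of the deletion, and p-values measure the spread between these pools.

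Library totals ran from 18747249 to 25522347 counts. In 10 of 12 libraries the transcripts of Xist and of Y-linked genes contradicted the sex on the label, and the exceptions were SERTfl/fl replicate 1 labelled female and SERTfl/fl replicate 1 labelled male. Female and male are therefore used as labels only. Some genotype values are also given without those 2 SERTfl/fl libraries, an alternative added after the data were seen. Slc6a4 gave 1 to 12 counts per SERTPyramid library and 0 to 17 counts per SERTfl/fl library, where 3 counts are the most that a count of 0 allows (0.118 to 0.16 CPM, counts scaled to a common library total, for counting error only). These ranges overlapped. The log2 fold change of Slc6a4, SERTPyramid over SERTfl/fl and averaged over labelled sexes, was -0.81 ± 0.56 (SE), with an edgeR adjusted p of 0.799. The 6 pyramidal neuron markers summed to 1630 to 1869 CPM and the 6 astrocyte markers to 1552 to 1687 CPM. In such bulk samples, fewer cells of a type and less RNA per cell cannot be told apart.

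The promoters of 3 members are shown because their genes turn up at the extremes of the results. Sdc3 had the highest level per length, Sdc1 the lowest, and Gpc2 the largest difference between genotypes. Each line holds the 300 bases of RefSeq (GRCm38.p6) around the start site, read along the strand of the gene. Capitals mark the GC box (GGGCGG, or CCGCCC on the other strand) and the CCAAT box (CCAAT, or ATTGG on the other strand). The Gpc2 window is chr5:138279888-138280187 on the minus strand, the Sdc3 window chr4:130792287-130792586 on the plus strand and the Sdc1 window chr12:8771146-8771445 on the plus strand.
Gpc2: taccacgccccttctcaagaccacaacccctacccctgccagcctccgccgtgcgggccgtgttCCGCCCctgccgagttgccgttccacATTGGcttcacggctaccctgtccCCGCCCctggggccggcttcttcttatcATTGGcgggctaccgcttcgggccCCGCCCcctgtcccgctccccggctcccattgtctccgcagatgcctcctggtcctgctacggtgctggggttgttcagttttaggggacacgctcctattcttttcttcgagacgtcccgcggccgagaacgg
Sdc3: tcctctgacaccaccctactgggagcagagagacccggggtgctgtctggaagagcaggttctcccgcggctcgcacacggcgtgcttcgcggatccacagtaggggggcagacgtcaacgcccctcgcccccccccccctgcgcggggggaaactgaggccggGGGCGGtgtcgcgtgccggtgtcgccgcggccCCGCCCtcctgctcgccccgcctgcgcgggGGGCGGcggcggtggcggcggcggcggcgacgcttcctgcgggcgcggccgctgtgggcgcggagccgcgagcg
Sdc1: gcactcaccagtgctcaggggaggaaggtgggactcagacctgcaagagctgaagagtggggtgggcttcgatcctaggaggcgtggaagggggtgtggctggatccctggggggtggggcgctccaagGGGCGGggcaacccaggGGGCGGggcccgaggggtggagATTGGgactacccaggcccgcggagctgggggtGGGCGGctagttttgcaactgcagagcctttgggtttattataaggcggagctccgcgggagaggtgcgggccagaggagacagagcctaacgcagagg
The Sdc3 window was 77.7% G and C with 44 CpG dinucleotides, the Gpc2 window 65.7% with 26, and the Sdc1 window 66.3% with 14. Over all 32851 RefSeq promoters of this length the median was 52.7% with 7 CpG. Each of the 3 windows held 3 GC boxes, a motif present in 35.66% of all promoters. CCAAT boxes, present in 37.41% of all promoters, numbered 2 in the Gpc2 window, 1 in the Sdc1 window and 0 in the Sdc3 window.

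RefSeq windows were found for 7 of the 10 members, and each of the 7 held at least 1 GC box, with 4 in Gpc3 and in Sdc4 and 1 in Gpc4 and in Gpc5. The Gpc5 window was the least rich in G and C among the 7 (54.7%). It was also the 1 window of the 7 with a TATA box (TATAAA on either strand, in 13.62% of all promoters). The E-box CACGTG, in 7.15% of all promoters, was in none of the 7. A match of letters is a description and not a binding site.

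The transcripts of both families were dominated by Sdc3. Compared per kilobase of exon, Sdc3, the neural syndecan and a receptor of pleiotrophin, stood at 182 ± 9.34 CPM per kb (SD, n = 12 libraries), 4.47 times the next gene. Its counts made up 75.2% of the summed CPM of the 10 genes. Gpc1, the glypican of neuronal axons and synaptic membranes, followed at 40.8 ± 1.46 CPM per kb, 4.45 times the next gene. Over the 12 libraries, the ranges of Sdc3, of Gpc1 and of the other 8 genes did not overlap.

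A middle group held 4 genes between 7 and 10 CPM per kb on average. Gpc4, an astrocyte-made glypican that promotes excitatory synapses, stood at 9.17 ± 0.647 CPM per kb. Sdc4, a widely expressed syndecan of cell adhesions, stood at 8.84 ± 0.945 CPM per kb. Sdc2, a syndecan of dendritic spines, stood at 7.84 ± 0.343 CPM per kb, and Gpc5, a glypican known from astrocytes, stood at 7.03 ± 0.425 CPM per kb. Neighbours in this order overlapped between libraries, so the order within the group is not firm.

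Below them, Gpc3, a glypican that restrains growth signals and sits beside Gpc4 on the X chromosome, stood at 3.25 ± 0.585 CPM per kb. Gpc6, a relative of Gpc4 that is also made by astrocytes, stood at 3.14 ± 0.257 CPM per kb. Gpc3 and Gpc6 overlapped each other but neither overlapped the middle group. Gpc2, known as cerebroglycan and described from immature neurons, stood at 1.87 ± 0.498 CPM per kb. Sdc1, the syndecan of epithelia and plasma cells, stood at 1.83 ± 0.204 CPM per kb, 99.8 times below Sdc3. Gpc2 and Sdc1 overlapped as well.

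**Figure D1:**
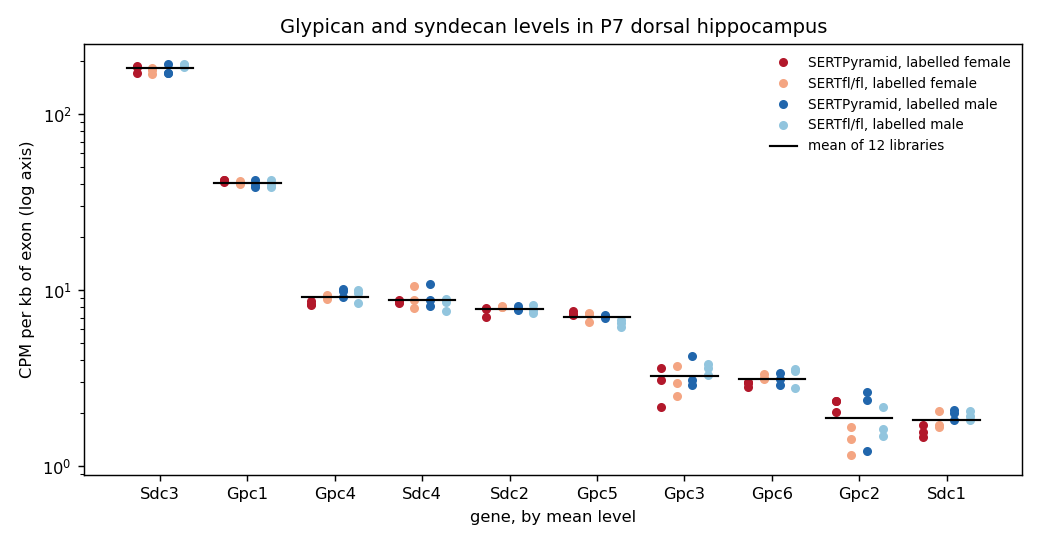
Level of each of the 10 genes in each library, in CPM per kilobase of annotated exon on a log axis, with genes ordered by their mean. Points are single libraries, coloured by group, and the line is the mean of 12 libraries; Sdc3 at 182 and Gpc1 at 40.8 CPM per kb lie clear of the other 8 genes.

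Sdc3 and Gpc1, the most abundant genes, were among the steadiest between libraries. The coefficient of variation over 12 libraries was 3.58% for Gpc1, 4.38% for Sdc2 and 5.12% for Sdc3, against 26.6% for Gpc2 and 18.01% for Gpc3. The highest library had 2.28 times the lowest for Gpc2 and 1.95 times the lowest for Gpc3. Counts per library were low for both, 116 to 263 for Gpc2 and 138 to 267 for Gpc3, against 20995 to 29340 for Sdc3. Sdc1, with similarly low counts, had a coefficient of variation of 11.2%.

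Gpc2 shares most of its exon bases with another gene, unlike the other 9 members. In the GENCODE M21 annotation of GRCm38, Gpc2 (ENSMUSG00000029510, chromosome 5, 138273655 to 138280005, minus strand) has 4274 exon bases, of which 1898 (44.4%) belong to no other gene. A readthrough gene model on the same strand, Gm43720, covers the rest and had 0 counts in all 12 libraries. Of the 1740 protein-coding bases of Gpc2, 166 (9.5%) are its own. Of its 1898 own bases, 1688 lie outside its 2 protein-coding transcripts, in other models that include 3 transcripts with a retained intron.

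Whether reads on shared exons were counted can be read from the table. Of 145 protein-coding genes with no exon base of their own, 142 (97.9%) had 0 counts in all libraries, against 2985 of 15573 (19.2%) among those with all exon bases their own. If shared reads were left out for Gpc2 too, most of the bases left to count lie outside its coding transcripts. How its reads spread over those bases was not tested. Its level was 4.22 CPM per kb when only its own bases were used as its length, above Gpc3 and Gpc6, so its place in the order depends on that choice. Gpc1 shares exon bases with Ankmy1 on the other strand (81.1% its own), Sdc3 with antisense models (92.3%) and Gpc5 with Gm20713 (97.6%), and the other 6 members are at 100%.

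**Figure D2:**
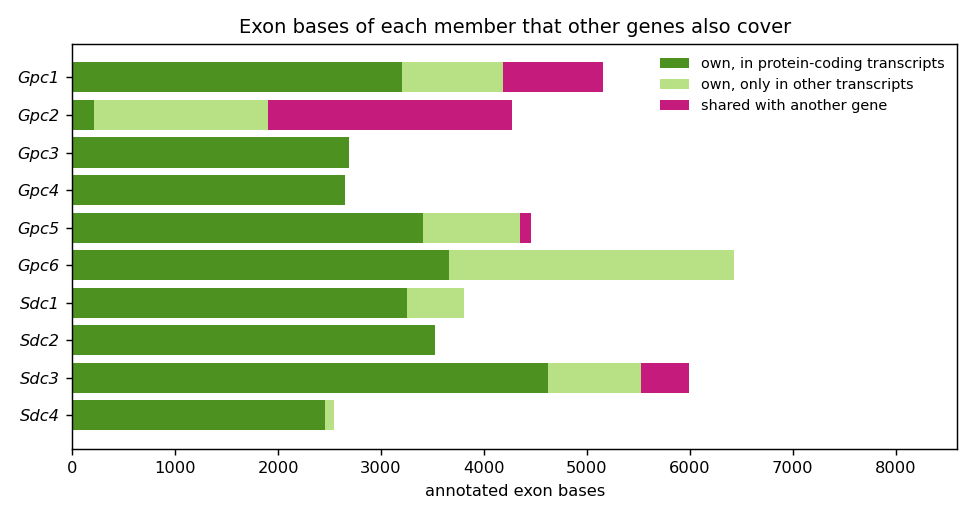
Annotated exon bases of each of the 10 genes, split into bases of that gene alone that lie in its protein-coding transcripts (dark green), bases of that gene alone in its other transcripts (light green) and bases shared with another gene (magenta). Gpc2 has 210 own bases in protein-coding transcripts out of 4274.

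The comparison of genotypes asks how deleting the transporter from pyramidal neurons goes with the transcripts of these surface proteins. In the fit of all 12 libraries, 0 of 10 members passed an adjusted p of 0.05 in edgeR's quasi-likelihood test among labelled females, where 0 of 17631 genes (0%) did. Of the 10, 1 had an unadjusted p under 0.05, against 8.04% of all genes. Among labelled males 0 of 10 members passed, with 0% of all genes, and 0 of 10 had an unadjusted p under 0.05, against 3.16% of all genes. Averaged over the labelled sexes 0 of 10 passed, with 0% of all genes, and 1 of 10 had an unadjusted p under 0.05, against 6.49%. The members' genotype values chose them, and nothing is read from these counts. DESeq2 and limma voom also passed 0 members in each of these comparisons, where DESeq2 passed 1 of all 17631 genes, in labelled females, and limma voom 0.

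Gpc2 was the member that differed most. In labelled females it had 10.02, 8.64 and 9.99 CPM in SERTPyramid libraries, against 7.17, 4.93 and 6.10 CPM in SERTfl/fl libraries. Every SERTPyramid library was above every SERTfl/fl library, a separation that 11.8% of all genes tested showed in that direction. The log2 fold change, SERTPyramid over SERTfl/fl, was 0.64 ± 0.25 (SE), and 0.78 without the 2 SERTfl/fl libraries numbered 1.

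In labelled males Gpc2 had 11.2, 5.24 and 10.1 CPM in SERTPyramid libraries, against 9.23, 6.97 and 6.38 CPM in SERTfl/fl libraries. These groups overlapped, because SERTPyramid replicate 2 was below all 3 SERTfl/fl libraries while the other two were above them. The log2 fold change was 0.23 ± 0.24 (SE), 0.49 without SERTPyramid replicate 2 and 0.03 without SERTPyramid replicate 1. It was 0.39 without the 2 SERTfl/fl libraries numbered 1. Averaged over labelled sexes it was 0.44 ± 0.17 (SE), and 0.59 without those 2 SERTfl/fl libraries. The difference between labelled females and labelled males was 0.41 ± 0.35 (SE), and 0.39 without those 2 libraries. Omitting SERTPyramid replicate 2 labelled male moved that difference to 0.15, and omitting replicate 1 of the same group moved it to 0.61.

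Other fits put Gpc2 past the threshold, and since they use the values by which it was picked, their calls are given as a description only. In a fit of the 6 labelled-female libraries by themselves its log2 fold change was 0.64 ± 0.12 (SE), and it was the 1 member called. That fit called 415 of 17108 genes (2.43%), and 1.65% were called in the direction of Gpc2. Without SERTPyramid replicate 2 labelled male, its log2 fold change averaged over labelled sexes was 0.57 ± 0.10 (SE). It was again the 1 member called there, among 144 of 18008 genes (0.8%).

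**Figure D3:**
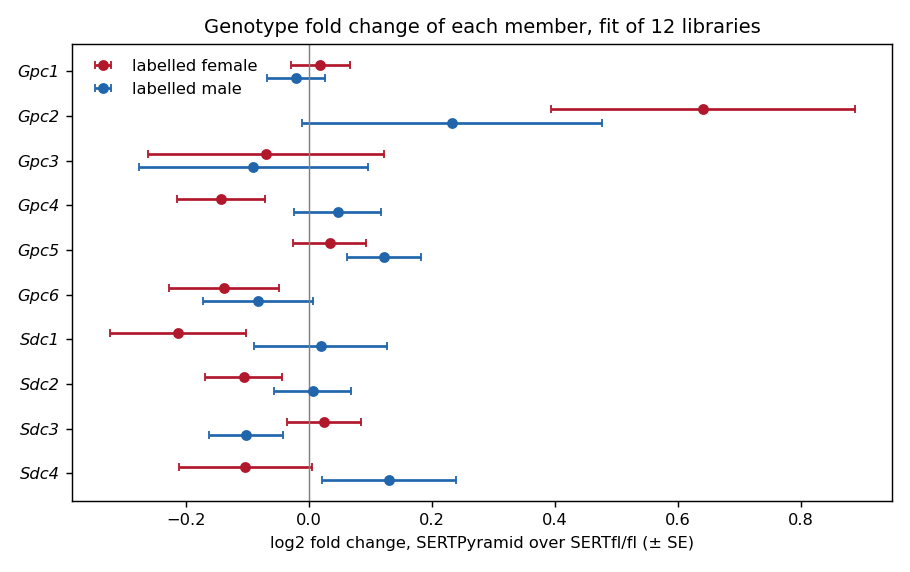
Log2 fold change (SERTPyramid over SERTfl/fl, x axis) of each of the 10 genes with its SE in the fit of 12 libraries, for labelled females (red) above labelled males (blue). Gpc2 lies at 0.64 and 0.23, and the other 9 genes lie between -0.21 and 0.13.

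Gpc2 lies head to head with Stag3, a meiotic cohesin gene on the plus strand (138280240 to 138312393), with 234 bases between them. In labelled females Stag3 had 7.14, 7.45 and 7.87 CPM in SERTPyramid libraries, against 4.04, 5.27 and 6.97 CPM in SERTfl/fl libraries. In labelled males it had 7.48, 3.27 and 6.94 CPM in SERTPyramid libraries, against 7.20, 4.39 and 3.61 CPM in SERTfl/fl libraries. Like Gpc2, Stag3 was lowest among SERTPyramid libraries in replicate 2 labelled male. The RefSeq start sites of the pair are 138279937 for Gpc2 and 138280509 for Stag3, so the printed Gpc2 window lies between the Gpc2 start and the Stag3 start for most of its length.

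Malat1, a long noncoding RNA kept in the nucleus, and Leng8 are set beside Gpc2 as well. Stag3, Malat1 and Leng8 were chosen after their values were seen. Malat1 had 262, 273 and 246 CPM in SERTPyramid libraries labelled female, against 202, 158 and 215 CPM in SERTfl/fl libraries labelled female. It had 327, 101 and 215 CPM in SERTPyramid libraries labelled male, against 216, 168 and 113 CPM in SERTfl/fl libraries labelled male. SERTPyramid replicate 2 labelled male had the lowest value of all 12 libraries for Malat1, Leng8 and Stag3, and the lowest but one for Gpc2.

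Leng8 had 254, 272 and 254 CPM in SERTPyramid libraries labelled female, against 159.6, 148 and 172 CPM in SERTfl/fl libraries labelled female. It had 254, 88.1 and 201 CPM in SERTPyramid libraries labelled male, against 209, 139 and 110.01 CPM in SERTfl/fl libraries labelled male. The 6 markers of progenitors and immature neurons, all of them detected, summed to 994 to 1104 CPM in SERTPyramid libraries labelled female, against 1131 to 1147 CPM in SERTfl/fl libraries labelled female. These marker sums did not overlap in labelled females and were lower in SERTPyramid libraries, where Gpc2 was higher. Most of each sum was Dcx, which overlapped by itself, at 604 to 669 CPM in SERTPyramid libraries and 664 to 725 CPM in SERTfl/fl libraries. Of the 6 genes, 1 was above 0 and 5 below 0 in log2 fold change there. In labelled males the sums overlapped, at 1021 to 1151 CPM in SERTPyramid libraries and 1094 to 1146 CPM in SERTfl/fl libraries. Of the 12 other marker sets, 3 also separated in labelled females. Dentate granule neuron markers were lower, at 315 to 345 CPM in SERTPyramid libraries and 353 to 414 CPM in SERTfl/fl libraries. Red blood cell markers were lower, at 43.9 to 53.6 CPM in SERTPyramid libraries and 58.1 to 67.3 CPM in SERTfl/fl libraries. Oligodendrocyte precursor markers were higher, at 719.7 to 744 CPM in SERTPyramid libraries and 681 to 713 CPM in SERTfl/fl libraries. These 3 sets overlapped between genotypes in labelled males. Dentate granule neuron markers were there at 352 to 371 CPM in SERTPyramid libraries and 332 to 365 CPM in SERTfl/fl libraries. Red blood cell markers were at 47.1 to 69.3 and 50.9 to 56.8 CPM, and oligodendrocyte precursor markers at 753 to 763 and 683 to 790 CPM, in the same order. The part of Stag3, of nuclear RNA and of these cell types in the Gpc2 values was not tested.

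**Figure D4:**
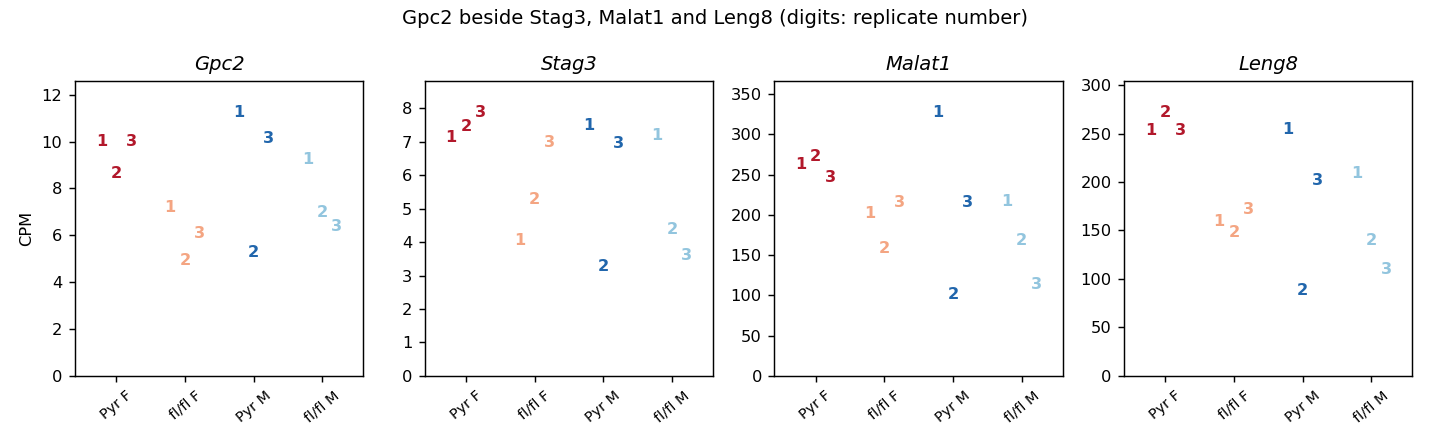
CPM of Gpc2, its neighbour Stag3, Malat1 and Leng8 in the 12 libraries, with each library drawn as its replicate number. Pyr is SERTPyramid, fl/fl is SERTfl/fl, and F and M are the labelled sexes; SERTPyramid replicate 2 labelled male sits at 5.24 CPM for Gpc2 and at 88.1 CPM for Leng8, far below the other two of its group.

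After group means were removed, the genes whose log2 CPM varied most like that of Gpc2 over the 12 libraries were Strada, Stat2 and Pfkfb4. Their root-mean-square differences from Gpc2 were 0.122, 0.231 and 0.272 in units of each gene's SD, the smallest among 12708 genes compared. For no member did the 3 most similar genes include another member.

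The astrocyte glypicans differed little. In labelled females Gpc4 had 21.9, 23.1 and 22.1 CPM in SERTPyramid libraries, against 23.7, 24.5 and 25.0 CPM in SERTfl/fl libraries. The SERTPyramid libraries were all lower, with a log2 fold change of -0.14 ± 0.07 (SE). In labelled males Gpc4 had 26.8, 26.1 and 24.3 CPM in SERTPyramid libraries, against 26.5, 22.3 and 25.5 CPM in SERTfl/fl libraries. Those groups overlapped, with a log2 fold change of 0.05 ± 0.07 (SE).

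Gpc6 showed the same separation in labelled females, with 19.4, 18.1 and 19.1 CPM in SERTPyramid libraries, against 21.4, 20.3 and 20.0 CPM in SERTfl/fl libraries. Its log2 fold change there was -0.14 ± 0.09 (SE), with all SERTPyramid libraries lower. In labelled males Gpc6 had 21.7, 20.1 and 18.6 CPM in SERTPyramid libraries, against 17.9, 23.0 and 22.3 CPM in SERTfl/fl libraries, and the groups overlapped (log2 fold change -0.08 ± 0.09, SE). Without the 2 SERTfl/fl libraries numbered 1, the log2 fold changes of Gpc6 were -0.11 in labelled females and -0.18 in labelled males. The difference between the labelled sexes was -0.05 ± 0.13 on the log2 scale, and 0.08 without those 2 libraries.

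Gpc5 was the 1 member whose groups separated in labelled males. It had 32.3, 31.1 and 31.8 CPM in SERTPyramid libraries labelled male, against 29.0, 30.1 and 27.6 CPM in SERTfl/fl libraries labelled male. All SERTPyramid libraries were higher, as for 4.09% of all genes tested, with a log2 fold change of 0.12 ± 0.06 (SE). In labelled females Gpc5 had 34.0, 32.0 and 32.6 CPM in SERTPyramid libraries, against 32.9, 32.8 and 29.6 CPM in SERTfl/fl libraries, which overlapped (log2 fold change 0.03 ± 0.06, SE). The summed astrocyte markers overlapped between genotypes in labelled females, at 1614 to 1687 CPM in SERTPyramid libraries and 1558 to 1671 CPM in SERTfl/fl libraries. In labelled males they were at 1591 to 1661 CPM in SERTPyramid libraries and 1552 to 1615 CPM in SERTfl/fl libraries, and their part in these values was not tested.

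Gpc1 and Gpc3 overlapped between genotypes in both labelled sexes. Gpc1 had 213, 218 and 218 CPM in SERTPyramid libraries labelled female, against 211, 207 and 215 CPM in SERTfl/fl libraries labelled female. Labelled males had 199, 204 and 218 CPM in SERTPyramid libraries, against 219.6, 205 and 199.6 CPM in SERTfl/fl libraries. The log2 fold changes of Gpc1 were 0.02 ± 0.05 and -0.02 ± 0.05 (SE) in labelled females and labelled males, the narrowest errors among the 10 genes. Without the 2 SERTfl/fl libraries numbered 1, the labelled-male value was 0.02.

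Gpc3 had 9.70, 8.26 and 5.84 CPM in SERTPyramid libraries labelled female, against 7.95, 6.76 and 9.998 CPM in SERTfl/fl libraries labelled female. In labelled males it had 11.4, 8.30 and 7.76 CPM in SERTPyramid libraries, against 8.91, 10.3 and 9.70 CPM in SERTfl/fl libraries. Its extremes were both SERTPyramid libraries, the lowest in replicate 3 labelled female and the highest in replicate 1 labelled male. Those 2 libraries also held the extremes of the 6 choroid plexus markers, which summed to 26.2 CPM in replicate 3 labelled female and to 2459 CPM in replicate 1 labelled male, against 456 to 1814 CPM in the other 10. Sdc2 was lowest in the same library as Gpc3, and Gpc2, Gpc4 and Sdc4 were highest in the same library as Gpc3. Gpc3 was also low, at 6.76 CPM, in SERTfl/fl replicate 2 labelled female, where these markers summed to 1286 CPM. Gpc2 was at 9.99 CPM in the library with the lowest marker sum. The log2 fold change of Gpc3 was -0.07 ± 0.19 (SE) in labelled females and -0.09 ± 0.19 (SE) in labelled males. Omitting the library with the lowest marker sum turned the labelled-female value to 0.11, and omitting the library with the highest marker sum moved the labelled-male value to -0.27. The part of choroid plexus tissue in these values was not tested.

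**Figure D5:**
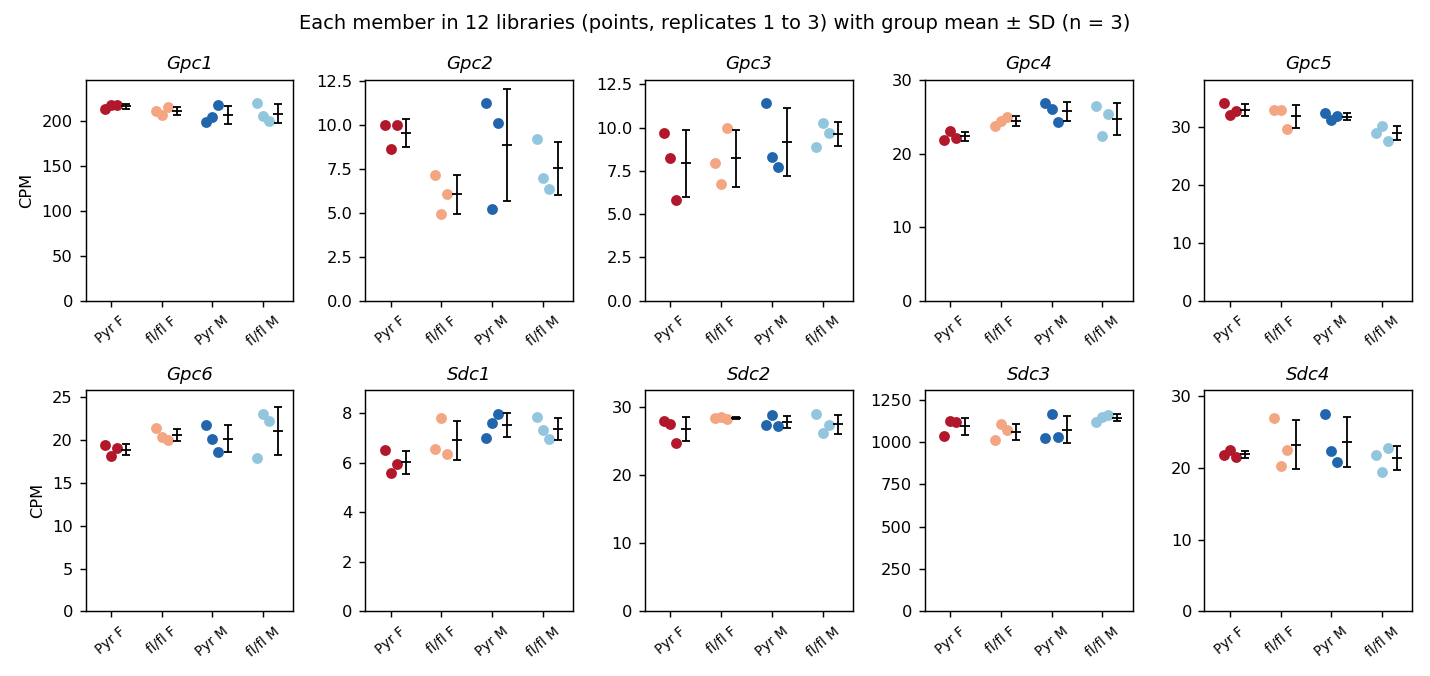
CPM of each of the 10 genes in each library (points) with the mean and SD of each group of 3 beside them; every axis starts at 0. Pyr is SERTPyramid, fl/fl is SERTfl/fl, and F and M are the labelled sexes; the Gpc2 panel shows the widest spread, from 4.93 to 11.2 CPM.

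Among syndecans, Sdc3 overlapped between genotypes in labelled females, with 1035, 1121 and 1119 CPM in SERTPyramid libraries, against 1009.9, 1104 and 1068 CPM in SERTfl/fl libraries. In labelled males it had 1026, 1165 and 1030.0 CPM in SERTPyramid libraries, against 1119.9, 1149.6 and 1159 CPM in SERTfl/fl libraries. In that sex replicate 2 of SERTPyramid was the highest of all libraries and the other two were below every SERTfl/fl library. The log2 fold changes were 0.03 ± 0.06 in labelled females and -0.10 ± 0.06 in labelled males (SE).

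Sdc2 had 28.0, 27.5 and 24.8 CPM in SERTPyramid libraries labelled female, against 28.4, 28.6 and 28.3 CPM in SERTfl/fl libraries labelled female. The SERTPyramid libraries were all lower there, with a log2 fold change of -0.11 ± 0.06 (SE), and -0.06 without SERTPyramid replicate 3. In labelled males Sdc2 had 27.4, 28.8 and 27.3 CPM in SERTPyramid libraries, against 29.0, 26.2 and 27.4 CPM in SERTfl/fl libraries, and the groups overlapped. Gpc4, Gpc6 and Sdc2 were the 3 members lower without overlap in labelled females, a pattern of 6.99% of all genes tested, and 0 members were so in labelled males, where 2.66% of all genes were.

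Sdc1 had 6.51, 5.60 and 5.97 CPM in SERTPyramid libraries labelled female, against 6.56, 7.83 and 6.36 CPM in SERTfl/fl libraries labelled female. In labelled males it had 7.01, 7.61 and 7.97 CPM in SERTPyramid libraries, against 7.84, 7.33 and 6.96 CPM in SERTfl/fl libraries. Both pairs overlapped, with log2 fold changes of -0.21 ± 0.11 in labelled females and 0.02 ± 0.11 in labelled males (SE). The labelled-female value of Sdc1 was -0.11 without SERTfl/fl replicate 2. Sdc4 also overlapped in both labelled sexes. It ranged over 20.9 to 27.5 CPM in the 6 SERTPyramid libraries and over 19.5 to 27.0 CPM in the 6 SERTfl/fl libraries. Its log2 fold change was -0.10 ± 0.11 (SE) in labelled females, or 0.02 without the 2 SERTfl/fl libraries numbered 1, and 0.13 ± 0.11 (SE) in labelled males. The labelled-male value was 0.01 without SERTPyramid replicate 1 and 0.22 without SERTPyramid replicate 3.

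Over the 10 members, the median log2 fold change was -0.09 in labelled females, where that of all 17631 genes was -0.0004. It was 0.01 in labelled males, where that of all genes was 0.0016. For the difference in genotype effect between the labelled sexes, 0 of 10 members passed in edgeR, with 0% of all genes, and 0 of 10 had an unadjusted p under 0.05, against 4.45% of all genes. DESeq2 passed 1 gene of all those tested for that difference and limma voom 0, and neither passed a member.

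The contrast of labelled sexes was not used to choose the genes, so it was tested, as a contrast of labels. No member passed: 0 of 10 had an adjusted p under 0.05 in edgeR, with 0% of all genes, while 3 of 10 had an unadjusted p under 0.05, against 9.01% of all genes. DESeq2 passed 19 of all genes and limma voom 0. Sdc1 had the smallest p among members. It ran from 5.60 to 7.83 CPM in the 6 labelled-female libraries, against 6.96 to 7.97 CPM in the 6 labelled-male libraries, with overlap. Its log2 fold change, labelled female over labelled male, was -0.20 ± 0.08 (SE), with an edgeR adjusted p of 0.483, and -0.17 without the 2 SERTfl/fl libraries numbered 1.

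Gpc5 ran from 29.6 to 34.0 CPM in labelled-female libraries, against 27.6 to 32.3 CPM in labelled-male libraries, with a log2 fold change of 0.09 ± 0.04 (SE), with an edgeR adjusted p of 0.524. X-linked Gpc4 ran from 21.9 to 25.0 CPM in labelled-female libraries, against 22.3 to 26.8 CPM in labelled-male libraries, with a log2 fold change of -0.11 ± 0.05 (SE), with an edgeR adjusted p of 0.527. Gpc3, the other X-linked member, had a log2 fold change of -0.22 ± 0.13 (SE), with an edgeR adjusted p of 0.656. Transcripts of Xist and of Y-linked genes contradicted most of these labels, so neither X-linked value is one of females over males as labelled. Without the 2 SERTfl/fl libraries numbered 1, these transcripts contradicted the label of every library left. The log2 fold changes, labelled female over labelled male, were then -0.23 for Gpc3 and -0.08 for Gpc4. For the remaining 6 genes the adjusted p in edgeR was between 0.741 and 0.987, with log2 fold changes between -0.09 and 0.04. Before adjustment the edgeR p was 0.016 for Sdc1 and 0.126 for Gpc3, and neither passed after adjustment over all genes tested.

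The genes around the glypicans and syndecans were tested across genotypes in 6 lists of 59 genes, chosen by known function with earlier results of these data known. Of these, 56 passed the filter, and Hs3st3a1, Hs3st6 and Nrxn2 did not. Nrxn2, a neurexin gene, was listed at 0 in all 12 libraries although 93.6% of its exon bases are its own, and the cause was not tested. In edgeR 0 of 56 passed among labelled females, where 6 of 56 had an unadjusted p under 0.05, against 8.04% of all genes. Among labelled males 0 passed and 2 of 56 had an unadjusted p under 0.05, against 3.16% of all genes. Averaged over the labelled sexes 0 passed and 6 of 56 had one, against 6.49% of all genes. DESeq2 and limma voom passed 0 of the 56 in each. The median log2 fold change of the 56 was -0.02 in labelled females and -0.03 in labelled males.

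Among the 12 genes that start and extend the chain, 5 were above 0 and 7 below 0 in labelled females, with a median log2 fold change of -0.02. Fam20b, the kinase that phosphorylates the xylose of the chain's linker, had the smallest p of the lists when the labelled sexes were averaged. It had 100.1, 102.4 and 98.5 CPM in SERTPyramid libraries labelled female, against 109.4, 107.0 and 106.6 CPM in SERTfl/fl libraries labelled female. In labelled males Fam20b had 96.5, 104.8 and 97.4 CPM in SERTPyramid libraries, against 105.2, 109.6 and 105.6 CPM in SERTfl/fl libraries. All 6 SERTPyramid libraries lay below all 6 SERTfl/fl libraries, as for 13 of 17631 genes tested (0.0737%), and Fam20b was named for its small p in this comparison. The averaged log2 fold change was -0.12 ± 0.03 (SE), with an edgeR adjusted p of 0.756, and it passed the threshold at -0.14 ± 0.03 (SE) when SERTPyramid replicate 2 labelled male was omitted.

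Xylt2, a xylosyltransferase that places the linker's founding sugar, had 33.6, 31.4 and 33.2 CPM in SERTPyramid libraries labelled female, against 29.9, 29.3 and 29.3 CPM in SERTfl/fl libraries labelled female. In labelled males Xylt2 had 32.4, 29.1 and 31.1 CPM in SERTPyramid libraries, against 28.4, 28.5 and 28.4 CPM in SERTfl/fl libraries. Within each labelled sex every SERTPyramid library was higher, as for 11.8% of all genes tested in labelled females and 4.09% in labelled males. The share of genes higher in both labelled sexes at once was not counted. Its averaged log2 fold change was 0.12 ± 0.04 (SE), with an edgeR adjusted p of 0.756, opposite in sign to that of Fam20b.

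Of the 14 tested genes that sulfate and reshape the chain, 3 were above 0 and 11 below 0 in labelled females, with a median log2 fold change of -0.02. All genes tested split there into 8794 above 0 and 8837 below 0. In labelled males 6 of the 14 were above 0 and 8 below 0. Ndst4, an N-deacetylase and N-sulfotransferase, had 31.5, 29.4 and 29.9 CPM in SERTPyramid libraries labelled female, against 33.8, 34.8 and 35.0 CPM in SERTfl/fl libraries labelled female. Those groups did not overlap, as for 6.99% of all genes tested in that direction, with a log2 fold change of -0.21 ± 0.08 (SE), with an edgeR adjusted p of 0.568. In labelled males Ndst4 was at 0.03 ± 0.09 on the same scale (SE), with an edgeR adjusted p of 0.999. Hs2st1, the 2-O-sulfotransferase, was at -0.12 ± 0.05 in labelled females (SE), with an edgeR adjusted p of 0.568. Ndst4 had the smallest p of the lists between labelled sexes, at 0.17 ± 0.06, labelled female over labelled male (SE), with an edgeR adjusted p of 0.449.

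Of the 8 genes that edit or release the finished molecules, 3 were above 0 and 5 below 0 in labelled females. Adam10, a protease that sheds surface proteins, was at -0.10 ± 0.05 (SE), with an edgeR adjusted p of 0.607. Hpse2, a relative of heparanase, was near the detection limit, with 0.683, 0.817 and 0.345 CPM in SERTPyramid libraries labelled male, against 0.160, 0.157 and 0.332 CPM in SERTfl/fl libraries labelled male. Its log2 fold change there was 1.46 ± 0.47 (SE), with an edgeR adjusted p of 0.999. Sulf1, a sulfatase that removes 6-O-sulfates outside the cell, had 3.64 CPM in SERTPyramid replicate 3 labelled female and 44.0 CPM in SERTPyramid replicate 1 labelled male. The other 10 libraries had 12.1 to 27.5 CPM of Sulf1. These are the libraries with the lowest and the highest sum of choroid plexus markers, and their part in the Sulf1 values was not tested.

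The 8 lysosomal enzymes that break the chain down split evenly, with 4 above 0 and 4 below 0 in labelled females, and 0 of them had an unadjusted p under 0.05 in any comparison of genotypes. Of the 6 tested genes of other heparan sulfate proteoglycans, 3 were above 0 and 3 below 0 in labelled females. Agrn, the gene of agrin, which organises synapses at the nerve-muscle junction, was at 0.08 ± 0.04 there (SE), with an edgeR adjusted p of 0.676.

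Among 8 binding partners, Cask, a scaffold protein that binds syndecan tails, had 129, 129 and 127 CPM in SERTPyramid libraries labelled female, against 135, 145 and 142 CPM in SERTfl/fl libraries labelled female. Those groups did not overlap, again as for 6.99% of all genes tested. Its log2 fold change was -0.15 ± 0.06 (SE), with an edgeR adjusted p of 0.567, and it passed in the fit of labelled-female libraries by themselves (-0.15 ± 0.04, SE). In labelled males Cask was at -0.07 ± 0.06 (SE), with an edgeR adjusted p of 0.999. Mdk, the growth factor midkine that binds heparan sulfate, was at 0.10 ± 0.05 averaged over labelled sexes (SE), with an edgeR adjusted p of 0.756. Lrrtm4 and Gpr158, synaptic partners of Gpc4, had unadjusted p above 0.05 in every comparison of genotypes. Lrrtm4 shares exon bases with Gm4409, and of its 1780 protein-coding bases 237 (13.3%) are its own.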

How the data were processed

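RNA of mouse dorsal hippocampus was sequenced in 12 libraries of pooled tissue with an unstranded TruSeq kit. The values deposited are unnormalised counts for each Ensembl gene on mm10, per the submitters' processing notes. The aligner, counting settings and annotation were not given in the sources used here. Library totals set the depth and counting error limits the low genes.

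Groups came from the labels. CPM used library totals, and levels per kb used the union of GENCODE M21 exons. Genes kept by filterByExpr (17631) were scaled by TMM and tested in edgeR 4.0.16 (R 4.3.3) by the quasi-likelihood F test over 4 groups, with Benjamini-Hochberg adjustment (threshold 0.05). Each SE was the size of the log2 fold change divided by the root of its F statistic. Alternatives were DESeq2 1.42.0, limma voom 3.58.1, other scaling, filters and lengths, a replicate block, labelled sexes fitted alone and leaving out libraries. Members and lists were chosen with earlier results of these data known. From each list, up to 4 genes with the smallest p could be named, and 1 gene that this rule takes is not reported here. Motifs were searched on both strands of RefSeq promoters.

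Replicates of a group differed by more than sampling noise (chi-square over degrees of freedom 2.39 to 12.6), so none was counted as a duplicate.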

Additional observations from a re-analysis of the deposited data

How the results depend on the processing

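With each labelled sex fitted alone, 1 member (Gpc2) and 2 pathway genes, Cask among them, were called for genotype in labelled females. Averaged over labelled sexes, leaving out 1 library at a time gave 0 to 1 members and 0 to 1 pathway genes, and the 1 of each came without SERTPyramid replicate 2 labelled male. The other counts of members and of pathway genes were 0 in every comparison under DESeq2, RLE size factors, both filters, limma voom and the omission of both SERTfl/fl libraries numbered 1. Some of these settings called other genes. With no low-count filter, 103 of 34328 genes were called for genotype in labelled females, 5 in labelled males and 66 averaged. That setting called 194 genes between labelled sexes. Without both SERTfl/fl libraries numbered 1, 13 of 17938 genes were called between labelled sexes.

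Replicate numbers did not pair the libraries: deviations from group means correlated at -0.225 to 0.234 for same-numbered libraries and at -0.254 to 0.194 for the others. With a replicate block, 0 members and 0 pathway genes were called in each comparison. Of all 17631 genes, that fit called 1 between labelled sexes and 0 in the comparisons of genotypes.

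Some labelled-sex fold changes near 0 changed sign (log2). Sdc2 was at 0.0088 under limma voom and at 0.011 without both SERTfl/fl libraries numbered 1, where Sdc4 was at -0.0493. Leaving out 1 library at a time gave -0.0241 to 0.0173 for Sdc2, -0.0545 to 0.0673 for Sdc4 and -0.222 to 0.0089 for Gpc2. With the longest protein-coding transcript as its length, Gpc2 had 3.09 CPM per kb and Gpc5 11.04 CPM per kb. Depth limits Gpc2, Gpc3, Sdc1 and Hpse2, which had few counts per library.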
